A study of Drosophila melanogaster with 26 samples.

Results

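Merging the ChIP-seq peaks of 13 antibody libraries from Drosophila embryos gave 10863 regions, of which 7606 lay on the chromosome arms 2L, 2R, 3L and 3R. Among these arm regions, 641 (8.43%) were called in at least 5 of the 10 libraries made with rabbit antibodies and in none of the 3 libraries made with the rat monoclonal antibody 3F1. These 641 regions were selected on the peak calls themselves, so the number of rabbit libraries per region and the absence of 3F1 peaks are given as descriptions, with no test. Peaks were joined into a region where neighbours shared at least 50 bp. The regions were set beside 1697 arm regions with the same minimum of 5 rabbit libraries and a peak in at least 1 3F1 library, called shared regions here.

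All chromatin came from pooled, unstaged whole embryos of the Oregon-R strain, 0 to 12 h old and fixed with 3.7% formaldehyde, either wild type (WT) or carrying the acf1-7 or the rsf1-3602 allele, both of which are imprecise P-element excisions. Rb1 and Rb2, both polyclonal rabbit antibodies, target the C-terminal part of the nucleosome remodelling subunit ACF1, and a further polyclonal antibody from rabbit targets RSF-1. Rb1 was used on 1 WT and 1 acf1 chromatin, Rb2 on 3 WT and 2 acf1 chromatins, and the RSF-1 antibody on 2 WT chromatins and 1 rsf-1 chromatin. The antibody 3F1, which recognises the N-terminal part of ACF1, was used on 3 WT chromatins and on no mutant chromatin in the libraries analysed here. It was used in excess and collected on pre-sorbed protein G beads, whereas the rabbit antibodies were collected with a mix of protein A and protein G beads. The 3F1 libraries came from chromatin batches 1 to 3 and the rabbit libraries from batches 4 to 10, so antibody, host species, beads and batch cannot be told apart in the absence of 3F1 peaks. Controls were 3 ChIP libraries with pre-immune serum of rabbits, all from WT chromatin, and 10 inputs, 1 for each batch (7 WT, 2 acf1 and 1 rsf-1 chromatin).

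ACF1 and RSF-1 are signature subunits of complexes built around the ATPase ISWI, which slide nucleosomes and space them into regular arrays. In ChIP-seq, a peak called with an antibody in chromatin that lacks its antigen cannot come from binding of that antigen, and such sites are called Phantom Peaks. Input chromatin and mock precipitations are the usual controls for a peak, and mutant chromatin and a further antibody against the same protein are additional ones.

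The rabbit lists held 1001 to 5636 peaks, the 3F1 lists 2130 to 3928 and the pre-immune and input lists 1 to 2359. The lists carry positions and no enrichment score, and read numbers of single libraries were not used, so how weak an enrichment could still be called is unknown for each library.

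The more rabbit libraries shared an arm region, the less often it lacked 3F1. Of the regions called in 1 rabbit library, 90.2% had no 3F1 peak, and this share was 77.0% at 2 libraries, 65.9% at 3 and 53.3% at 4. At 5 rabbit libraries it was 42.9%, and it was 26.7% at both 6 and 7 libraries. The fall was interrupted at 8 libraries, where 30.3% of the regions lacked 3F1, before 9.31% at 9 and 2.73% at 10 libraries. In numbers, 210 of the 641 regions were called in 5 rabbit libraries, 139 in 6, 126 in 7 and 142 in 8. Only 19 regions had 9 rabbit libraries and 5 had all 10. Just outside the rule lay 291 arm regions with 4 rabbit libraries and no 3F1, and 527 with at least 5 rabbit libraries and exactly 1 3F1 library. Of the latter, 468 had their 3F1 peak in replicate 2, whose list is the longest of the 3. Without that library the same rule would have selected 1109 regions, among them all 641.

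**Figure D1:**
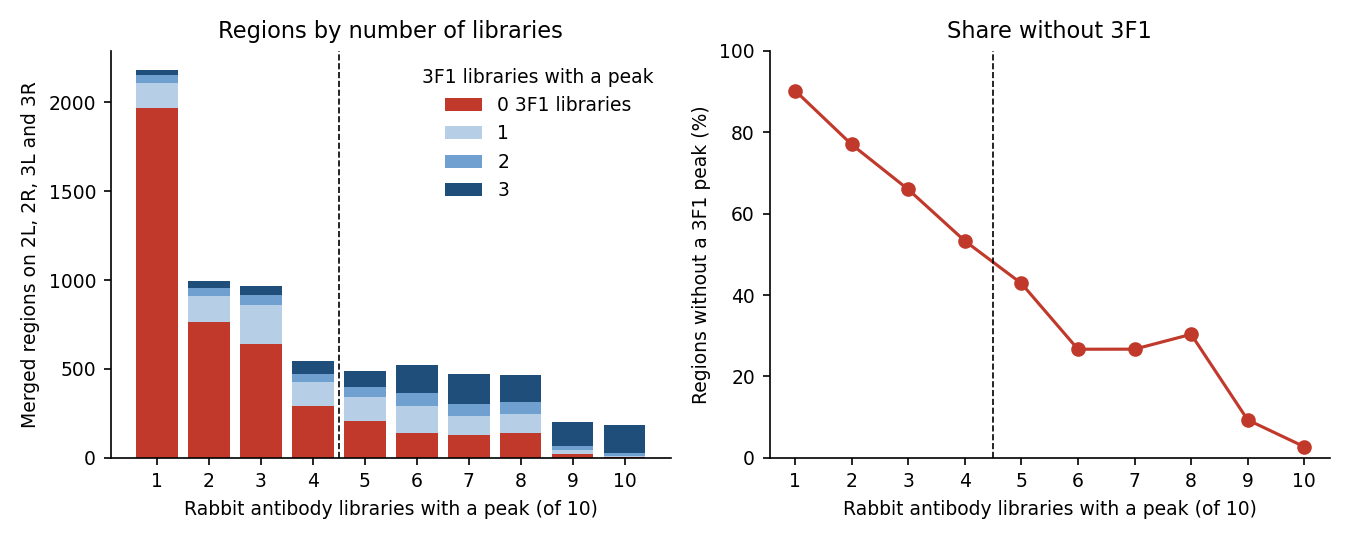
Left, merged regions on 2L, 2R, 3L and 3R by the number of rabbit antibody libraries with a peak (x axis, of 10), stacked by the number of 3F1 libraries with a peak; right, the percentage of regions without a 3F1 peak at each number. Regions to the right of the dashed line and in red are the 641 regions, and the share without 3F1 fell from 90.2% at 1 library to 2.73% at 10, with 30.3% at 8.

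The RSF-1 antibody called 617 of the 641 regions (96.3%) in WT replicate 1, 565 (88.1%) in WT replicate 2 and 597 (93.1%) in rsf-1 replicate 1, against a background over all arm regions of 56.6%, 33.3% and 53.7%. With Rb2 in WT chromatin, 305 regions (47.6%, 95% exact binomial interval 43.7 to 51.5) were called in replicate 1, 597 (93.1%) in replicate 2 and 464 (72.4%, 68.8 to 75.8) in replicate 3, where the background was 23.7%, 39.4% and 34.3%. In acf1 chromatin Rb2 called 268 (41.8%, 38.0 to 45.7) in replicate 1 and 620 (96.7%) in replicate 2, with a background of 19.1% and 52.6%. Since the rule required 5 of these libraries, shares above the background are a consequence of the choice, and nothing is read from them. Rb1 differed in that its shares lay below the background, from which nothing is read either, since the rule used these calls. It called 15 regions (2.34%, 1.32 to 3.83) in WT chromatin, where 7.42% of all arm regions had a peak, and 75 (11.7%, 9.32 to 14.4) in acf1 chromatin, where the background was 15.8%. Among the shared regions the same Rb1 libraries called 29.5% and 19.9%. In WT chromatin, 501 of the 564 arm regions with an Rb1 peak were shared regions, which the rule leaves out. In acf1 chromatin they were 338 of 1203. The Rb1 lists are short, with 1001 peaks in WT and 1984 in acf1 chromatin.

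The 641 regions fell into 71 different sets of rabbit libraries, and a few sets held most of them. The most frequent set, with 121 regions (18.9%), was all 8 Rb2 and RSF-1 libraries and no Rb1. Next came 120 regions called in Rb2 acf1 replicate 2, Rb2 WT replicate 2 and the 3 RSF-1 libraries alone. A further 72 regions had these 5 libraries together with Rb2 WT replicates 1 and 3, and 56 had them with Rb2 WT replicate 3. No Rb1 library had a peak in 560 regions (87.4%), compared with 1062 of the shared regions (62.6%). All 3 RSF-1 libraries had a peak in 536 regions (83.6%), compared with 1524 shared regions (89.8%). No RSF-1 peak was present in 11 regions (1.72%), called with ACF1 antibodies alone, and in 7 shared regions (0.412%). All 5 Rb2 libraries met in 159 regions (24.8%), beside 588 shared regions (34.6%). By chromatin batch, 623 regions (97.2%) were called in at least 5 of the 7 rabbit batches and 209 (32.6%) in all 7. The shared regions gave 97.3% and 38.1%, and the minimum of 5 libraries largely sets these shares. None of the combinations in this paragraph was counted over all arm regions. The rule used these calls, so nothing about the regions is read from them.

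**Figure D2:**
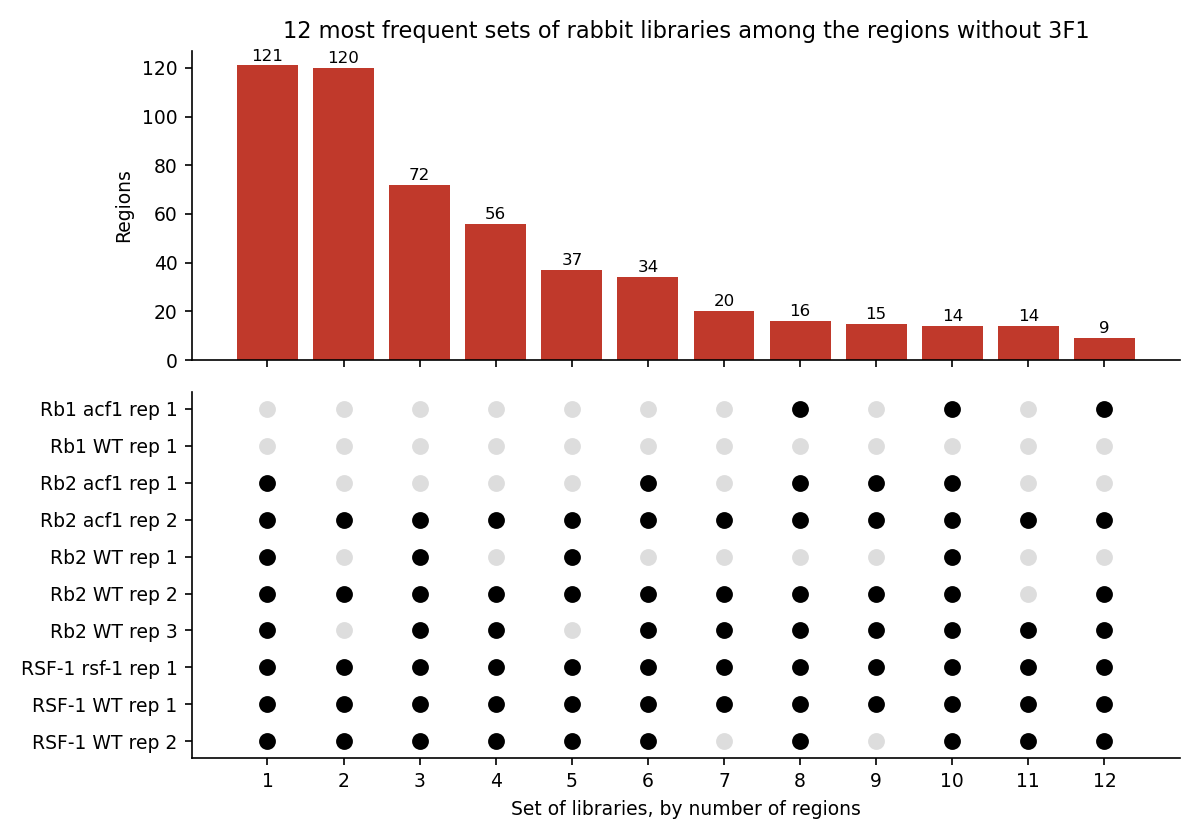
The 12 most frequent sets of rabbit libraries among the 641 regions, with the number of regions in each set (bars, upper panel) and the libraries that make up the set (black dots, lower panel; grey dots are libraries without a peak). The largest sets, of 121 and 120 regions, contain the 3 RSF-1 libraries and no Rb1 library.

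Nearly all of the regions were called in mutant chromatin too, as were nearly all of the shared regions. Over all arm regions, single mutant libraries had a peak in 15.8% to 53.7%, the most in Rb2 acf1 replicate 2 (52.6%) and RSF-1 rsf-1 replicate 1 (53.7%). The combinations below were not counted over all arm regions. A peak in at least 1 mutant library was present in 639 regions (99.7%), and the shared regions gave 99.8%. ACF1 antibodies called 629 regions (98.1%) in both WT and acf1 chromatin, beside 98.7% of the shared regions. The RSF-1 antibody called 597 (93.1%) in both WT and rsf-1 chromatin, beside 97.3% of the shared regions. Both conditions were met by 587 regions (91.6%), compared with 96.2% of the shared regions. WT peaks without any mutant peak were found in 2 regions, and a region called in mutant chromatin alone could not occur, because the rule required 5 libraries and 4 were mutant. The 6 WT libraries together called 9 regions (1.40%), compared with 359 shared regions (21.2%), and the number could not exceed the 15 regions called with Rb1 in WT chromatin. The 4 mutant libraries together called 42 regions (6.55%), against 15.8% of the shared regions. At least 5 of 10 libraries were required, so a region in no mutant library could come only from 5 or 6 WT libraries. The shares in mutant chromatin are thus set in part by the rule, and nothing about the regions is read from them.

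Within Rb2, the calls in these regions went together for Rb2 acf1 replicate 1 (batch 4) and Rb2 WT replicate 3 (batch 8), across genotypes. Of the 268 regions called in Rb2 acf1 replicate 1, 96.6% were also called in Rb2 WT replicate 3 and 61.9% in Rb2 WT replicate 1. Of the 373 regions without a peak in Rb2 acf1 replicate 1, 55.0% were called in Rb2 WT replicate 3 and 37.3% in Rb2 WT replicate 1. The shared regions had the same link, at 98.2% and 42.7% for Rb2 WT replicate 3. They differed for Rb2 WT replicate 1, which called 90.5% of the shared regions with a peak in Rb2 acf1 replicate 1 and 74.5% of those without. As a result, 102 of the 641 regions (15.9%) had a peak in Rb2 acf1 replicate 1 and none in Rb2 WT replicate 1, compared with 64 shared regions (3.77%). The reverse was seen in 139 regions (21.7%) and in 764 shared regions (45.0%). These are calls that the rule used, and no test was made of them.

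To compare the regions on calls that took no part in choosing them, each rabbit library was left out in turn, regions in at least 5 of the other 9 were taken, and the share called in the library left out was compared between regions without and with 3F1. Shares of the regions with 3F1 were weighted to the same numbers of other rabbit libraries. The regions without 3F1 in each comparison were among the 641. For Rb1 WT replicate 1 they were all 641, so its 15 calls are the same ones as above and are no separate evidence. In batch 6, chromatin from which Rb1, Rb2 and RSF-1 libraries were all made, regions without 3F1 were called less often by each. Rb2 WT replicate 1 called 279 of 615 (45.4%) against 77.0% with 3F1, Rb1 WT replicate 1 called 15 of 641 (2.34%) against 21.4%, and RSF-1 WT replicate 2 called 401 of 477 (84.1%) against 89.2%. In batches 4 and 8 the order was turned for Rb2. Rb2 WT replicate 3 called 388 of 565 (68.7%) without 3F1 against 49.9% with 3F1, and Rb2 acf1 replicate 1 called 238 of 611 (39.0%) against 23.7%. Rb1 acf1 replicate 1, also from batch 4, called 65 of 631 (10.3%) against 10.3%. The remaining libraries called nearly all regions of both kinds. They were Rb2 acf1 replicate 2 (95.3% against 96.6%), Rb2 WT replicate 2 (90.5% against 95.5%), RSF-1 rsf-1 replicate 1 (90.5% against 96.4%) and RSF-1 WT replicate 1 (94.7% against 98.1%).

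Averaged over the 7 batches, the share without 3F1 minus that with 3F1 was -1.13 percentage points, with an SD of 11.7 points between batches, and 5 of the 7 batches lay below 0. The difference was smaller than the spread between batches (p = 0.781 in a two-sided exact permutation test that flips the sign of each batch, where the smallest possible p is 0.0156). Batch means ran from -18.6 points in batch 6 to 18.7 points in batch 8. The mean turned to 1.43 points when at least 6 other libraries were required, and leaving out single libraries moved it between -2.98 and 1.83 points. By genotype, the differences averaged -2.09 points over the 4 WT batches and 0.153 points over the 3 mutant batches, a gap of -2.24 points (two-sided exact permutation test over batches, p = 0.8).

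**Figure D3:**
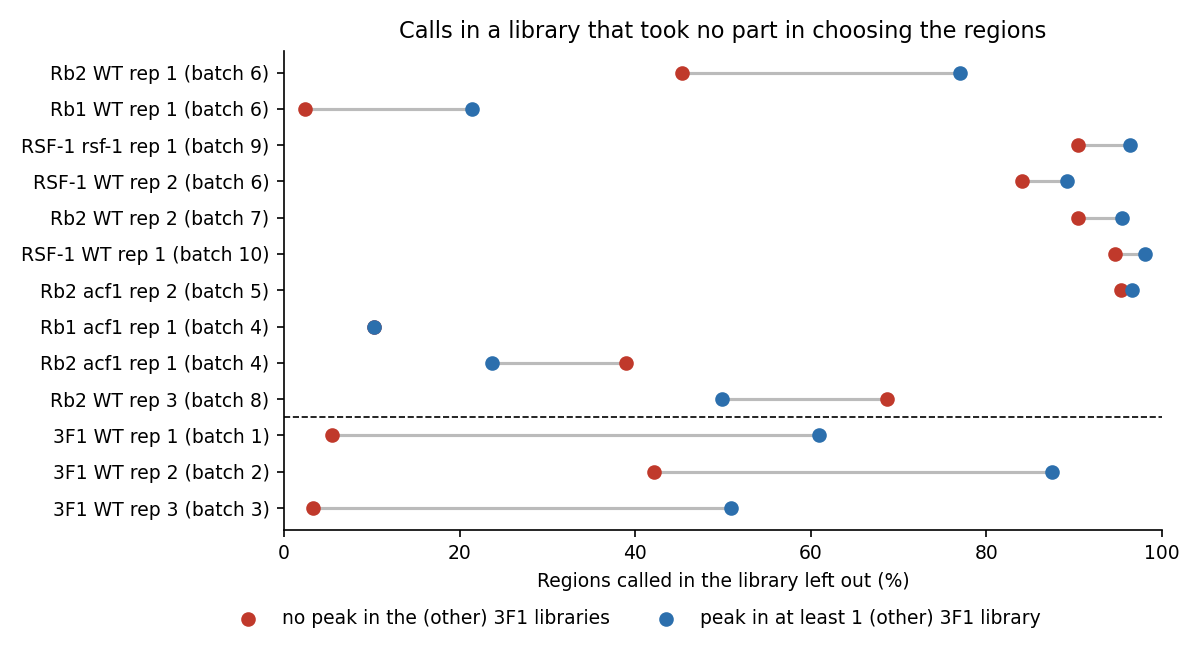
Percentage of regions called in a library that was left out when the regions were chosen (x axis), for regions without 3F1 (red) and with 3F1 (blue), by library; below the dashed line, the same for each 3F1 library with the other 3F1 libraries defining the colours. The points with 3F1 are weighted to the numbers of rabbit libraries of the points without it. Red lies to the right of blue in Rb2 WT replicate 3 and Rb2 acf1 replicate 1, and far to the left in every 3F1 library.

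Each 3F1 library called regions far less often where the other 3F1 libraries had no peak. Among regions in at least 5 rabbit libraries, 3F1 replicate 1 called 37 of 678 regions (5.46%) that the other 3F1 libraries lacked, against 60.9% of those with a peak in one of them. Replicate 3 called 22 of 663 (3.32%) against 51.0%, and replicate 2 called 468 of 1109 (42.2%) against 87.5%. The differences averaged -49.5 points with an SD of 5.32 (n = 3) and had the same direction in all 3 libraries (p = 0.25 by the same exact test, the lowest value that 3 libraries allow). A region without a peak in 2 of the 3F1 libraries was thus called by the other at a rate from 3.32% to 42.2%. The longest list gave the highest rate. Each group that the other 3F1 libraries lacked held all 641 regions, which by the rule have no 3F1 call. Nothing about the 641 is read from these rates.

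Few of the regions coincided with peaks of control libraries. The paper lists an input control for each ChIP profile, so the antibody peak calls may not be independent of the inputs. At least 1 input library had a peak in 8 of the 641 regions (1.25%, 0.540 to 2.44), beside 31 shared regions (1.83%) and 2.13% of all arm regions. At least 1 pre-immune library had a peak in 3 regions (0.468%, 0.0966 to 1.36), beside 16 shared regions (0.943%) and 2.47% of all arm regions. Per input, between 0 and 5 of the 641 regions had a peak (0 to 0.780%), and a count of 0 allows a share of up to 0.468% when 3 counts are taken as the limit (0.574% as the upper end of the 95% exact binomial interval). The share minus that in the shared regions, weighted to the same number of rabbit libraries, was -0.182 percentage points with an SD of 0.408 over 10 inputs, and 6 of the 10 inputs lay below 0 (exact sign-flip permutation test, p = 0.189). This call depended on the choice of libraries, as the difference was -0.273 points (p = 0.0332, same exact test) when regions were chosen from WT libraries alone and 0.0269 points when every list was cut to its first 2130 lines. The pre-immune libraries gave a difference of -0.343 points with an SD of 0.303 (n = 3, exact sign-flip permutation test, p = 0.5). The list of pre-immune Rb2 WT replicate 2 held 1 peak, in neither kind of region, so its difference was 0. With that 0 the test could not give a p below 0.5, so it could not decide whether the shares differ. Inputs of batches 1 to 3, the batches of the 3F1 libraries, had peaks in 0.364% of the regions on average. Inputs of the other batches had them in 0.223% (exact permutation test, p = 0.608). The input lists of batches 1 to 3 held 398, 2359 and 1045 peaks and the others 193 to 265. The test did not adjust for this difference in length. Intervals and floors cover counting error only and treat regions as independent.

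Peaks of the 641 regions and of the shared regions scattered around their common centre by distances that differed by less than the spread between batches. The centre of a library's peak was 13.4 to 34.5 bp from the median centre of the other rabbit libraries in the same region (medians for each number of other libraries, averaged with the numbers of regions as weights), with the lowest value in RSF-1 WT replicate 1 and the highest in Rb1 acf1 replicate 1. The difference from the shared regions was 0.430 bp with an SD of 2.62 bp over 7 batches (exact sign-flip permutation test, p = 0.641), and its sign changed under several alternatives. The regions had a median width of 258 bp (204 to 547 bp), beside 269 bp (203 to 672 bp) for the shared regions, and nearly every single peak was 200 bp wide.

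The place of a peak in its list, as the line number in percent of the list's length, served as a further description, since the lists hold no score. The sources do not state what orders the lines. Across the 13 antibody lists, the share of arm peaks whose region was also called in at least 5 other lists fell from a median of 95.7% in the first 20% of the lines to 86.2%, 71.1%, 51.7% and 29.8% in the following parts of equal length, so early lines were the more often repeated ones. Peaks of the 641 regions had a median place between 19.4% and 48.5% in the 10 rabbit lists, beside 37.8% to 47.1% for all arm regions. Their median lay later than that of all arm regions in Rb1 WT replicate 1, Rb2 WT replicates 1 and 2 and RSF-1 WT replicate 2. It lay earlier in the other lists. The shared regions lay earlier than the 641 in every list, between 15.7% and 38.4%. Part of this gap went with the number of rabbit libraries. At 5 libraries the median place over the 8 Rb2 and RSF-1 lists was 49.2% without 3F1 and 55.8% with it, at 6 libraries 48.7% and 41.3%, at 7 libraries 37.0% and 34.6%, and at 8 libraries 22.0% and 20.9%. Single lists differed more. At 6 libraries the widest gaps were in RSF-1 rsf-1 replicate 1 (46.8% without 3F1, 27.0% with it) and RSF-1 WT replicate 1 (47.4% and 26.8%). The few regions at 9 libraries had 17.8% and 19.0%, and those at 10 libraries 7.37% and 13.7%. Peaks of the 641 regions thus stood in early as well as late lines, and why 3F1 peaks were absent was not tested. Taking each region's median place over its libraries, 39 of the 641 (6.08%) lay in the first 10% of the lists and 32 (4.99%) beyond 80%. Of the shared regions, 224 (13.2%) and 59 (3.48%) did. These shares were not counted over all arm regions.

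**Figure D4:**
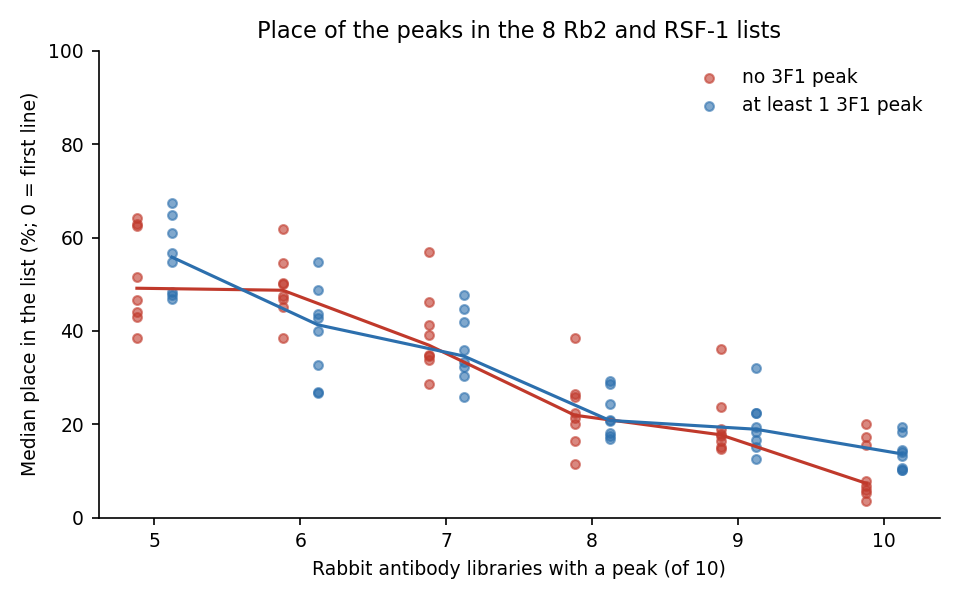
Median place of peaks in each of the 8 Rb2 and RSF-1 lists (y axis, line number as a percentage of list length, 0 is the first line) against the number of rabbit libraries of the region, for regions without 3F1 (red) and with 3F1 (blue). Each point is 1 library and the lines join the medians over libraries, which fall from 49.2% to 7.37% without 3F1 and from 55.8% to 13.7% with it.

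Distances to the nearest 3F1 peak varied widely and were not compared with those of other positions on the arms. The nearest 3F1 peak lay under 500 bp away for 113 regions (17.6%), and 11 regions overlapped a 3F1 peak by 1 to 42 bp, short of the 50 bp required. At the other end, 188 regions (29.3%) had no 3F1 peak within 10000 bp. The median distance was 5134 bp, with quartiles of 1508 and 12219 bp and a maximum of 141610 bp. Of the 113 near regions, 34 (30.1%) were in at least 8 rabbit libraries, as were 132 of the 528 others (25.0%). When the 113 were left out, the difference in calls of left-out rabbit libraries was -0.421 points. The nearest other region of the 641 was a median of 36329 bp away, and it was under 1000 bp away for 12 regions.

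**Figure D5:**
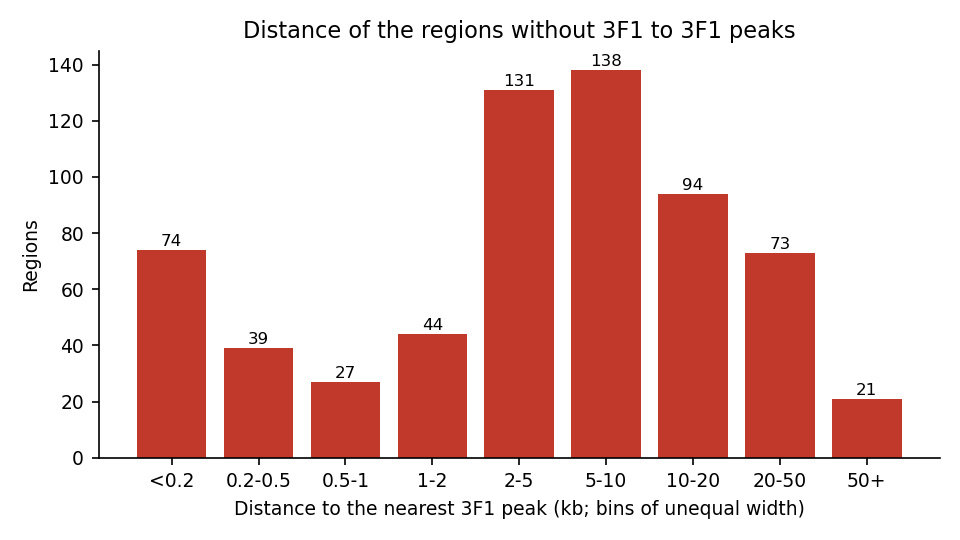
Number of the 641 regions (y axis) by distance to the nearest peak of any 3F1 library (x axis, kb, bins of unequal width). The lowest bin holds 74 regions under 0.2 kb from a 3F1 peak, and the bins from 2 to 10 kb hold 131 and 138.

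The share of regions lacking 3F1 ranged from 26.4% to 29.1% over the 4 arms. Of the arm regions in at least 5 rabbit libraries, 27.4% had no 3F1 peak, and the values were 27.0% on 2L (133 regions), 29.1% on 2R (169), 27.4% on 3L (150) and 26.4% on 3R (189). By the same count, 26.4% of such regions on the X chromosome (156 regions) lacked 3F1, whereas the small chromosome 4 had 40.8% (20 regions). The heterochromatic, unplaced and mitochondrial sequences together had 16.8% (31 regions). These sequences are outside the 641 and were not tested against them.

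Single regions illustrate the range, with 1-based positions in Release 5 of the genome (dm3). All 10 rabbit libraries called chr3L:16581219-16581456, with places between 1.17% and 7.69% of every list, and the nearest 3F1 peak was 3744 bp away. At chr2R:9337920-9338166 the place ran from 0.405% in Rb2 acf1 replicate 2 to 48.0% in Rb1 WT replicate 1, with a 3F1 peak 935 bp away. The other regions with 10 rabbit libraries were chr3L:540514-540841, chr3R:1604890-1605139 and chr3R:12589778-12590095, at 34226, 136 and 15221 bp from 3F1. None of these 5 had a peak in any input or pre-immune library. The first region on each arm was chr2L:107769-108030 (7 rabbit libraries), chr2R:130415-130678 (5 libraries, 14 bp from a 3F1 peak), chr3L:246874-247120 (8 libraries) and chr3R:163278-163572 (8 libraries).

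At the edges of the rule, chr2L:182690-182913 was called in 4 rabbit libraries and no 3F1 library, and chr2L:66747-67146 in 5 rabbit libraries and 1 3F1 library. Control peaks were concentrated in a few regions, since 10 of the 641 had any and 4 had them in at least 2 control libraries. The most were at chr2L:22390697-22391225, with peaks in 6 of the 10 inputs and in 5 rabbit libraries. Its neighbour chr2L:22391298-22391625 had 3 control libraries and 8 rabbit libraries, and chr2R:544602-544969 had 3 control libraries and 6 rabbit libraries. In these 3 regions the peaks stood at 14.1% to 26.4% of the Rb1 acf1 replicate 1 list, at 34.5% to 59.6% of the Rb2 acf1 replicate 1 and Rb2 WT replicate 3 lists, and at 95.1% or later in every other rabbit list that held them. The next were chr2R:9040078-9040331 with peaks in 2 inputs and chr2L:21559732-21559964 with a peak in 1, the first by position of 6 regions tied at 1 control library.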

How the data were processed

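ChIP-seq of ACF1 and RSF-1 had been performed on 10 batches of Drosophila embryo chromatin, giving 13 antibody, 3 pre-immune and 10 input libraries. The authors mapped reads to Release 5 (dm3) with Bowtie 1.1.1 and used HOMER 4.7 for peak calling with its defaults. The deposited lists, 1 per library, hold start and end positions with no score (unit: other), so depth per peak is unknown. Samples were grouped by the antibody, genotype and batch in the labels.

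Regions were merged, counted and compared with custom scripts (Python 3.11.15, numpy 2.4.6, scipy 1.17.1), which were tested on simulated lists. Replicates of a group came from different batches, and p-values measure the spread between these. The pre-immune test is an exception, since pre-immune Rb2 WT replicate 1 and pre-immune Rb WT replicate 1 both came from batch 7. Batches of the rabbit libraries also differed in antibody and genotype, so their spread is not that of batch alone. Differences were tested with two-sided exact permutation tests at a threshold of 0.05. Alternatives varied overlap, minimum number of libraries, distance to 3F1, own input, weighting and single libraries. The regions, lists and tests were chosen with earlier results of these data known. Single regions named are those in most rabbit libraries (whole classes until at least 5), the first on each arm, the 5 with most control libraries (ties by position) and the first just outside each threshold. No Release 5 genome or gene annotation was used, so the planned motif search was not run and regions carry no gene names or sequences.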

Additional observations from a re-analysis of the deposited data

Results flagged for a closer look

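Among the 7 WT inputs, replicate 2 (batch 2) stood apart, with peaks in 5 of the 641 regions (0.780%), while the other WT inputs had peaks in 0 to 2 of them. Its gap to the nearest other input was 0.6 of the whole range, above Dixon's critical value of 0.568 for 7 samples. This input has the longest control list, with 2359 peaks, and chance flags about 1 in 20 groups. The share of shared regions with a peak in the WT inputs was not flagged in this way.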

How the results depend on the processing

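The number of regions was 431 to 932 under the settings other than leaving out a library, and 449 to 1109 without single libraries, the highest without 3F1 replicate 2. With every list cut to its first 2130 lines, a setting chosen after seeing the data, 469 regions were selected, and 315 of the 641 (49.1%) were among them. For left-out rabbit libraries the difference was reversed with at least 6 libraries (1.43 points), was larger without weighting (-5.67 points), with libraries in place of batches (-3.75 points) and with at least 4 libraries (-3.40 points), and ranged from -2.98 to 1.83 points without single libraries. It did not pass the test under any alternative (exact p from 0.0781 to 1). For left-out 3F1 libraries it was -55.1 points without weighting, -61.2 points with lists cut to 2130 lines and -72.2 to -40.0 points without single libraries. The input difference was -0.273 points (exact p = 0.0332) for WT libraries only, -0.175 points (exact p = 0.0176) with both Rb1 libraries left out (also chosen after seeing the data), 0.0269 points with cut lists and -0.317 to 0.115 points without single libraries. It passed the test without Rb2 acf1 replicate 1 (-0.280 points, exact p = 0.0352) and was reversed without 3F1 replicate 3 (0.115) or RSF-1 WT replicate 2 (0.0411). The pre-immune difference was 0.0155 points with cut lists and -0.667 to -0.0334 points without single libraries. The difference between inputs of batches 1 to 3 and the others, 0.141 points, was 0.498 points (exact p = 0.0667) with cut lists, -0.0180 points without regions within 500 bp of 3F1 and -0.0934 to 0.323 points without single libraries, reversing without 3F1 replicate 3 or without input WT replicate 2 (-0.0669). The difference in peak centre scatter was -0.106 bp with peaks of the own input removed, -0.262 bp with mean distances, 1.61 bp (exact p = 0.0938) without weighting, -0.127 bp without both Rb1 libraries, -0.335 bp with cut lists and -1.05 to 0.833 bp without single libraries. The cause of these changes was not tested. No paired analysis was possible because replicate numbers mark different batches, so that no block on them could be fitted. The tests themselves used differences between region classes within each library.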

Other observations

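The 39 regions whose median place lay in the first 10% of the lists were looked at after their values were seen. Of these, 30 were called in at least 8 rabbit libraries and all in at least 6, while 3 had a peak in Rb1 WT replicate 1 and 6 in Rb1 acf1 replicate 1. None had a peak in an input or pre-immune library. A 3F1 peak lay under 500 bp away from 8 of them and 5000 bp or more from 12, and the median distance was 2939 bp. The earliest were chr2R:15384313-15384555 (median place 1.36%, 8 rabbit libraries, nearest 3F1 peak 44248 bp away) and chr3L:17005598-17005824 (1.42%, 8 rabbit libraries, 3223 bp).

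The difference between the 641 regions and the shared regions in their share with an input peak averaged -0.347 points in the 7 WT inputs and 0.204 points in the 3 mutant inputs, a gap of -0.551 points (two-sided exact permutation test, p = 0.05). The 2 acf1 inputs gave 0.255 and 0.507 points, with peaks in 2 and 4 of the 641 regions. The rsf-1 input went the other way, at -0.151 points. WT inputs 6 and 7 also lay above 0, at 0.0992 and 0.0702 points, and the other WT inputs below 0. Peaks in an acf1 input were present in 4 of the 641 regions, and no region had peaks in both acf1 inputs without a peak in a WT input.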
